A study of Mus musculus with 2 samples.

Results

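The mouse Mir378 family comprised 4 genes, Mir378a, Mir378b, Mir378c and Mir378d, of the 2202 microRNA genes counted in heart tissue. They were taken by gene symbol from the GENCODE M21 annotation, a rule that uses no measured level. The tissue came from adult female mice labelled 5xFAD/CAST that were 8 to 10 months old. The 5xFAD line is a transgenic model of Alzheimer disease whose transgenes are driven by the neuronal Thy1 promoter, while CAST denotes a strain bred from wild-caught castaneus mice. Small RNA, for which the labels give a size range below 30 with no unit, was sequenced in 1 group of 2 libraries, numbered as biological replicates 1 and 2, with no control group. Because 1 donor identifier is shared by the libraries in the labels, the spread between them may be technical, and every comparison of replicate 1 with replicate 2 below compares libraries and not conditions.

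A microRNA gene is transcribed as part of a longer RNA, cut to a hairpin precursor and then to a mature strand that guides Argonaute to messenger RNAs, mainly through bases 2 to 8 of the strand, the seed. Mir378a lies inside Ppargc1b, the gene of the transcriptional coactivator PGC-1β, which drives mitochondrial and fatty acid oxidation genes. In mice its mature strands repress carnitine O-acetyltransferase and MED13 and so act on the same metabolism as the host protein, and heart, skeletal muscle and brown fat are known sites of expression. Mir378b, Mir378c and Mir378d are later-annotated genes whose products are named for their likeness to the product of Mir378a.

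The mature sequences of the 3 minor genes show how little separates them, which matters because reads were counted only where they were unique to a locus. They are given 5′ to 3′ from RefSeq (GRCm38.p6), with the seed in capitals.
mmu-miR-378b: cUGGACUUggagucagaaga
mmu-miR-378c: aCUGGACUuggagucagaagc
mmu-miR-378d: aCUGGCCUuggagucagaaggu
Counted from the 5′ end of mmu-miR-378c, mmu-miR-378d differed by A6C, inside the seed, and by C21G. The sequence of mmu-miR-378b starts 1 base later, which moves its seed by 1 base, and differed from mmu-miR-378c only by C21A over 20 aligned positions. The seeds were therefore CUGGACU for mmu-miR-378c, UGGACUU for mmu-miR-378b and CUGGCCU for mmu-miR-378d. No other of the 1738 mature sequences in that table had any of the 3. None was listed there for Mir378a. Its precursor shares 20 consecutive bases with that of Mir378c, and these include the seed of mmu-miR-378c. The seeds are therefore not shown to be particular to the 3 genes.

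The mature strand sits on different sides of the hairpin in these genes. The precursors are printed here with the mature strand in capitals, so that its place can be seen.
Mir378b: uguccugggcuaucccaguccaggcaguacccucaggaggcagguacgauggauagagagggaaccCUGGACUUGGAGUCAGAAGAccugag
Mir378c: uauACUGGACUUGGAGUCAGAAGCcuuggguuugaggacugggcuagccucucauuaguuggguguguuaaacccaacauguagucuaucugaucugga
Mir378d: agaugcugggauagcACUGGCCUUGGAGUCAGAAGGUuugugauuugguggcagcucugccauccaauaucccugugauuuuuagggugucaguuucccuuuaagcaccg
In Mir378b the mature strand covered bases 67 to 86 of 92, toward the 3′ end. In Mir378c it covered bases 4 to 24 of 99, and in Mir378d bases 16 to 37 of 110, both toward the 5′ end. The longest run common to these 3 precursors was the 14 bases CUUGGAGUCAGAAG, which the precursor of Mir378a also held, at bases 49 to 62 of 66 and thus toward the 3′ end. Of all 2202 precursors, 5 held the run. The fifth was Gm27881, a predicted microRNA gene on chromosome 1, 13262198 to 13262279, with 42 counts in replicate 1 and 29 in replicate 2. It is named because it was the remaining holder of the run, and is no member by symbol.

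**Figure D1:**
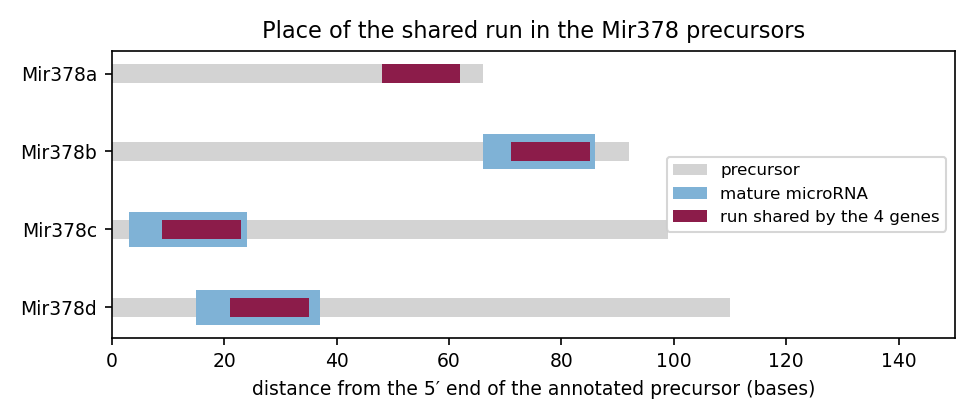
Each grey bar is an annotated precursor of a Mir378 gene, drawn from its 5′ end in bases, with the mature strand in blue where it is given and the 14-base run in dark red. The run lies toward the 3′ end in Mir378a and Mir378b and toward the 5′ end in Mir378c and Mir378d.

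Mir378a shared 20 consecutive bases with the precursor of Mir378c, 19 with Mir378b and 15 with Mir378d. Of the mature strand, 20 of 21 bases of mmu-miR-378c and 19 of 20 of mmu-miR-378b lay inside the run shared with Mir378a. The 1 base of each that lay outside was the last, at the 3′ end. Within the mature strand, only that base told these genes from Mir378a. For mmu-miR-378d 15 of 22 bases lay inside and 7 outside. These 7 are not all differences, because only the longest unbroken run was counted and A6C breaks it. No run of 18 bases or more linked Mir378d to another annotated microRNA gene, whereas Mir378a, Mir378b and Mir378c each shared such a run with the other two. The tables leave reads that fitted several loci unassigned, and these made up 42.4% of replicate 1 and 43.2% of replicate 2. The counts of Mir378a, Mir378b and Mir378c therefore leave out any read that fitted more than 1 of them. The count of Mir378a is thus a lower limit, unlike CPM, whose denominator holds assigned reads alone. Those of Mir378b and Mir378c are lower limits only if no changed reads of Mir378a were added, which was not tested.

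The computed folding of the precursors also set Mir378a apart from the other members. Its minimum free energy was -58.3 kcal/mol per 100 bases, and 95.6% of the 2202 precursors had a less stable value per base. Mir378b stood at -33.8, Mir378d at -31.8 and Mir378c at -27.3 kcal/mol per 100 bases, each above the median of -36.9 over all precursors. Fewer precursors were less stable than these, 40.6% for Mir378b, 31.1% for Mir378d and 13.1% for Mir378c. In the predicted fold 13 of the 14 bases of the shared run were paired in Mir378a, 9 in Mir378b, 9 in Mir378c and 6 in Mir378d. The annotated precursor lengths, 66 to 110 bases, enter these values, and the median was -43.7 over the 380 genes detected here.

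The genes lie on 4 chromosomes of build mm10, and Mir378a alone among them has a host gene on its own strand. Mir378a is on chromosome 18 within intron 1 of all 3 annotated Ppargc1b transcripts, 2531 bp from the annotated 5′ end of that 102296 bp gene. Mir378b is on chromosome 11, 88352773 to 88352864, plus strand, inside intron 11 of 2 transcripts of Msi2, which runs on the minus strand. Mir378c is on chromosome 14, 46954830 to 46954928, minus strand, inside an intron of Samd4, which runs on the plus strand. Mir378d is on chromosome 10, 126710282 to 126710391, minus strand, between genes, with the nearest protein-coding genes, Atp23 and Lrig3, 158035 and 694922 bp away. Msi2 and Samd4 encode RNA-binding proteins. The messenger RNA of Ppargc1b was not measured in these libraries.

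Nearly all reads of the family came from Mir378a. It had 442177 counts in replicate 1 and 363354 in replicate 2, which is 105618 and 126274 counts per 1000000 assigned counts (CPM). Its share of assigned counts was thus 10.6% in replicate 1, with an exact Clopper-Pearson 95% interval from 10.5 to 10.6, and 12.6% in replicate 2, with an interval from 12.6 to 12.7. The mean share was 11.6% ± 1.46 (SD, n = 2). As a share of every read in the table, assigned or not, it was 3.34% in replicate 1 and 4.07% in replicate 2. All intervals given here cover counting error only, since the tables hold no molecular identifiers that would tell molecules from copies.

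The other members had few assigned reads, in both libraries. Mir378d had 1411 counts in replicate 1 and 730 in replicate 2, or 337 and 254 CPM. Mir378c had 117 and 95 counts, or 27.9 and 33.0 CPM, and Mir378b 51 and 30 counts, or 12.2 and 10.4 CPM, in replicates 1 and 2. All 4 genes thus passed 1 CPM in both libraries, a level that 17.3% of the annotated microRNA genes reached. The limit that a count of 0 allows, taken roughly as 3 counts, corresponds to 0.717 CPM in replicate 1 and 1.04 CPM in replicate 2. Each member stood above it. That limit does not cover changed reads of Mir378a, whose part in the counts of the other members was not tested. The order Mir378a, Mir378d, Mir378c, Mir378b held in both libraries, and the ranges of no neighbouring members overlapped. Mature lengths of the 3 minor members span 20 to 22 bases, so no length scaling was applied.

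**Figure D2:**
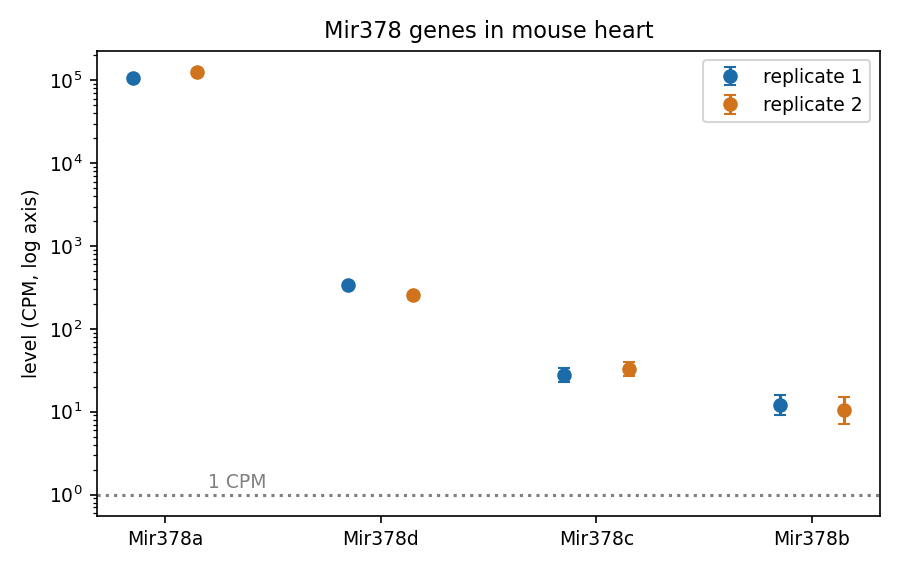
Points are the level of each Mir378 gene in CPM on a log axis, with replicate 1 left and replicate 2 right, and bars are exact 95% counting intervals. Mir378a stands at 105618 and 126274 CPM, and the lowest member, Mir378b, at 12.2 and 10.4 CPM.

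Within the family, Mir378a held 99.6% of assigned counts in replicate 1, with an exact 95% interval from 99.6 to 99.7, and 99.8% in replicate 2, with an interval from 99.7 to 99.8. Mir378b, Mir378c and Mir378d together held 0.356% of 443756 family counts in replicate 1 (0.339 to 0.374) and 0.235% of 364209 in replicate 2 (0.219 to 0.251). For each count of Mir378d there were 313 of Mir378a in replicate 1, with an exact 95% interval from 297 to 330, and 498 in replicate 2, with an interval from 463 to 536. These intervals do not overlap, and the ratio of replicate 1 to replicate 2 was 0.630 (exact conditional 95% interval 0.575 to 0.689).

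Against Mir378c the proportion was alike in both libraries. For each count of Mir378c there were 3779 of Mir378a in replicate 1 and 3825 in replicate 2, and the ratio of these, 0.988, had an interval of 0.746 to 1.31. For each count of Mir378b there were 8670 of Mir378a in replicate 1 (6594 to 11645) and 12112 in replicate 2 (8484 to 17952), with a ratio of 0.716 (0.440 to 1.15). Neither proportion differed between libraries beyond counting error, and the widths of the intervals show how large a difference these counts could miss. Whether reads of Mir378a with 1 changed base add to the counts of Mir378b, Mir378c or Mir378d was not tested. The counts hold no read sequences.

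The read strand decided whether Mir378a was counted at all. The tables give, for each gene, reads regardless of strand, reads on its own strand and reads on the opposite strand. Mir378a had 442177 and 363354 reads on its own strand, 0 and 0 on the opposite strand, and 0 and 0 when strand was ignored, in replicates 1 and 2. Gm25301, a predicted microRNA gene of 113 bases on the other strand, covers all 66 bases of Mir378a. Reads in the overlap fit both genes once strand is ignored and are then called ambiguous.

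Gm25301 had 0 counts on its own strand in both libraries, which allows at most 0.717 CPM in replicate 1 and 1.04 CPM in replicate 2. On the strand of Mir378a, its interval held 442178 reads in replicate 1 and 363354 in replicate 2. The longer interval thus added 1 read in replicate 1 and 0 in replicate 2, so the reads at this locus lay on the Mir378a precursor or overlapped it. Of the reads called ambiguous without strand, Mir378a accounted for 34.5% of 1280090 in replicate 1 and 63.8% of 569775 in replicate 2. Mir126a, the endothelial microRNA of Egfl7, which also has a partner on the other strand, accounted for 57.0% in replicate 1 and 23.6% in replicate 2. Mir378b, Mir378c and Mir378d overlap no other microRNA gene, and their counts were identical with and without strand.

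**Figure D3:**
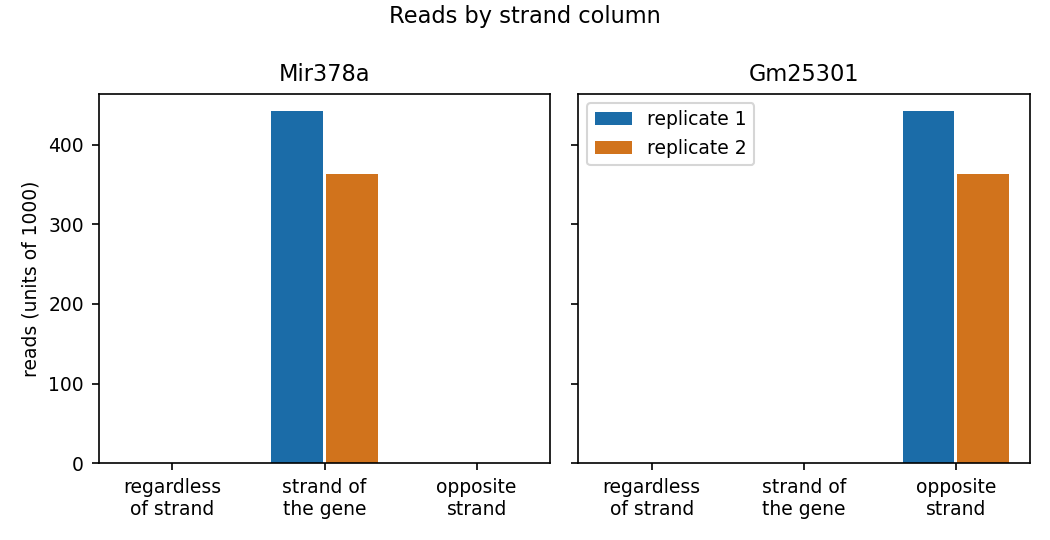
Bars give the reads, in units of 1000, of Mir378a and of Gm25301 on the other strand, under each of the 3 strand columns, with replicate 1 left of replicate 2. The 442177 and 363354 reads of Mir378a appear under its own strand and again as opposite-strand reads of Gm25301, and under neither gene when strand is ignored.

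Mir378a had the highest mean level of all 2202 genes, 115946 ± 14606 CPM (SD, n = 2), and ranked second in replicate 1 and first in replicate 2. This ranking covers only reads unique to 1 locus. Reads at several loci, 42.4% of replicate 1 and 43.2% of replicate 2, are left out, so it is no order of full microRNA levels. Mir126a, with 174314 CPM in replicate 1 and 46780 in replicate 2, averaged 110547 ± 90180 CPM, so its range contained that of Mir378a and their order is not resolved. Of the 379 other detected genes, 1 overlapped the range of Mir378a and 378 lay below it.
The next genes down were Mirlet7b with 62441 CPM in replicate 1 and 102435 in replicate 2, Mir23b with 50745 and 92953, and Mir23a with 45740 and 67881. Mirlet7b belongs to the let-7 differentiation microRNAs, and Mir23b and Mir23a to a pair of clusters expressed in vessels and muscle. In replicate 1 Mir378a was 1.69-fold, 2.08-fold and 2.31-fold these genes, and in replicate 2 it was 1.23-fold, 1.36-fold and 1.86-fold.

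By mean level Mir378d ranked 94, Mir378c 199 and Mir378b 254. Of the 379 other detected genes, 86 lay above the range of Mir378d and 281 below it, 171 above and 168 below that of Mir378c, and 219 above and 110 below that of Mir378b. The range of Mir378d overlapped the ranges of 12 other detected genes, that of Mir378c 40 and that of Mir378b 50, so these positions are approximate.

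**Figure D4:**
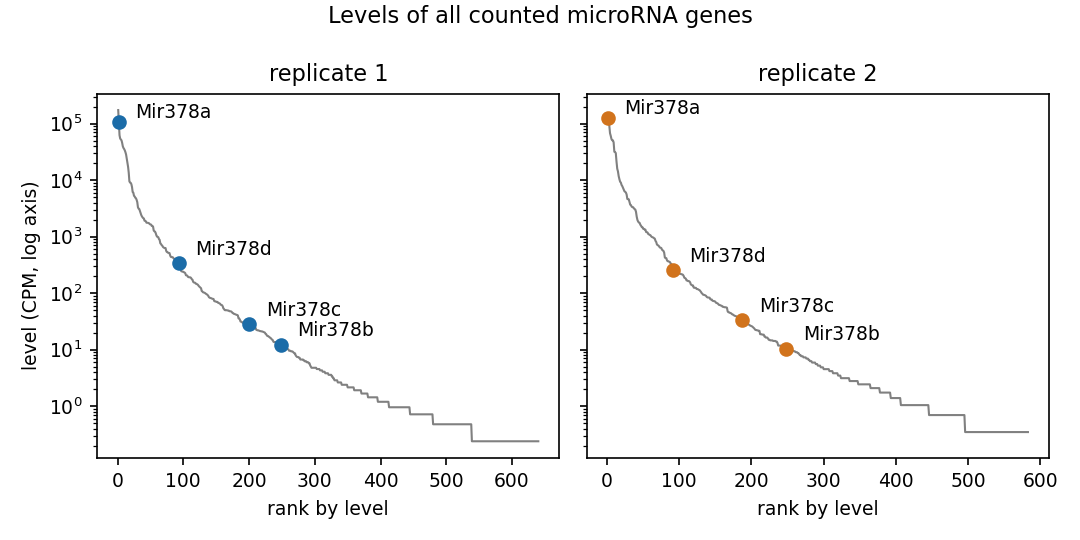
Grey lines give the level of every microRNA gene with at least 1 count, in CPM on a log axis, against its rank in replicate 1 (left) and replicate 2 (right). Mir378a sits at rank 2 and 1, Mir378d at 93 and 91, Mir378c at 200 and 187, and Mir378b at 248 and 248.

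Among microRNA genes in introns of a protein-coding host on the same strand, clear of its annotated exons, Mir378a was first in both libraries. There were 734 such genes, of which 139 were detected, and together they held 36.8% of assigned counts in replicate 1 and 45.8% in replicate 2. Mir378a supplied 28.7% of them in replicate 1, with an exact 95% interval from 28.7 to 28.8, and 27.6% in replicate 2, with an interval from 27.5 to 27.7. The next intronic gene was Mirlet7g of Wdr82 in replicate 1, which Mir378a exceeded 2.01-fold, and Mir23b in replicate 2, which it exceeded 1.36-fold. Mir126a touches an annotated exon of Egfl7 and was not among the 734. It exceeded Mir378a in replicate 1, with 174314 CPM against 105618, and was below it in replicate 2, with 46780 against 126274.

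The difference of Mir378a between the libraries was small beside that of most genes, although far beyond counting error. After TMM scaling its log2 ratio of replicate 1 over replicate 2 was -0.33 (exact 95% interval -0.34 to -0.32), or 0.796-fold. It passed the exact binomial test across 309 genes with an adjusted p too small for the software to represent. The ratio was closer to 0 than that of 196 of the tested genes, and the median gene differed 1.43-fold in either direction. Relative to the median ratio of the tested genes it was -0.32, and -0.18 relative to the median of the 709 genes with any count.

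Of the other members only Mir378d passed the test, in the opposite direction. Its log2 ratio was 0.34 (exact 95% interval 0.21 to 0.47; binomial test, Benjamini-Hochberg adjusted p = 5.49e-07). Mir378c had a log2 ratio of -0.31 (-0.72 to 0.09; adjusted p = 0.174) and Mir378b 0.15 (-0.53 to 0.85; adjusted p = 0.830), and their intervals contained 0. All 4 members were tested and 2 passed, where 63.4% of the 309 tested genes passed, 28.2% higher and 35.3% lower in replicate 1. The members' count of 2 in 4 lies near that share and is no result about the family.

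**Figure D5:**
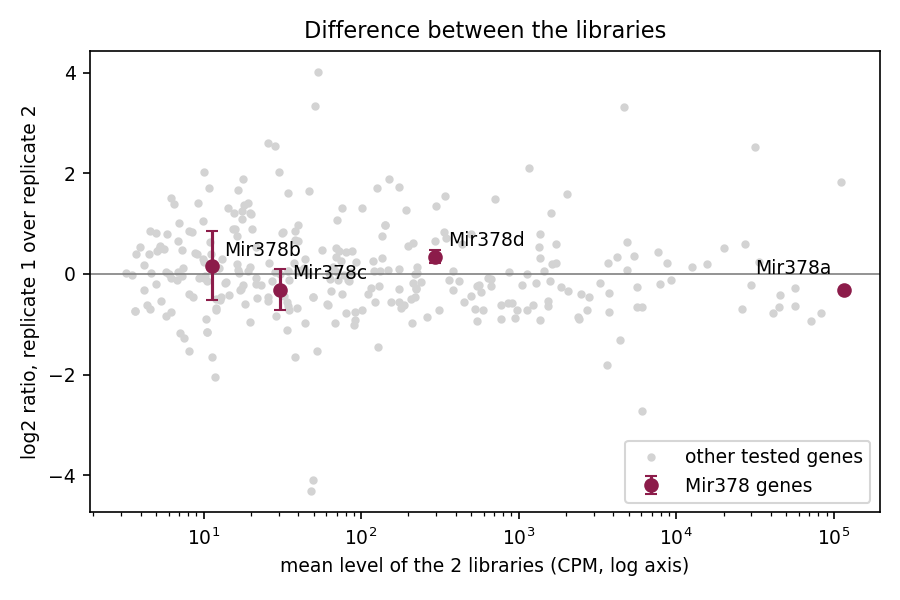
Each grey point is a tested gene, with its mean level in CPM on a log axis and its TMM-scaled log2 ratio of replicate 1 over replicate 2, and the Mir378 genes are dark red with exact 95% counting intervals. Mir378a at -0.33 and Mir378d at 0.34 have intervals that exclude 0, and those of Mir378c and Mir378b include it.

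The 3 genes of 1000 CPM or more whose ratio lay closest to that of Mir378a were Mir328, Mirlet7g and Mir155, out of 61 candidates. Their log2 ratios were -0.34, -0.28 and -0.38. This likeness rests on 2 libraries and is a description. Mir328 had 1875 CPM in replicate 1 and 2256 in replicate 2, and for each of its counts there were 56.3 of Mir378a in replicate 1 and 56.0 in replicate 2. That near equality follows from the choice of Mir328 by its ratio and is no further evidence of likeness.

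The microRNA genes of the myosin hosts, which mark heart muscle cells, were far below Mir378a and moved the other way between the libraries. Mir499 of Myh7b had 4787 CPM in replicate 1 against 3618 in replicate 2, Mir208a of Myh6 at 1638 and 1074, and Mir208b of Myh7 at 41.8 and 22.2. Mir378a was 16.3-fold the sum of the 3 in replicate 1 and 26.8-fold in replicate 2. All 3 were higher in replicate 1, with log2 ratios of 0.33, 0.54 and 0.84. The count of Mir378a per count of Mir499 was 22.1 in replicate 1 and 34.9 in replicate 2, a ratio of 0.632 (95% Wald interval on the log scale 0.617 to 0.648). The corresponding ratio was 0.549 (0.526 to 0.572) for Mir208a and 0.445 (0.334 to 0.593) for Mir208b. These compare reads of 2 libraries and cover counting error only.

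In the list of muscle microRNAs, 9 genes were present, 6 were tested, 4 were higher in replicate 1 and 0 lower, where 28.2% of all tested genes were higher and 35.3% lower. Beside the myosin-hosted genes these included Mir206, a gene of skeletal muscle, with 16.2 CPM in replicate 1 and 3.82 in replicate 2. Mir1a-2, a muscle gene with a second locus, had 72.6 and 67.4 CPM and did not pass (adjusted p = 0.885). Its reads, like those of other muscle genes encoded at several loci, were counted only where they were unique, so the list's sum of 6568 CPM in replicate 1 and 4800 in replicate 2 says nothing of the full level of muscle microRNAs.

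Other microRNA genes known for roles in energy metabolism were each well below Mir378a in reads unique to a locus. Of 15 such genes listed, Mir696 matched no gene of the annotation and is not analysed here, 12 of the other 14 were detected and Mir761 had no count. Of the 11 tested, 6 were higher and 3 lower in replicate 1, beside the same 28.2% and 35.3% over all tested genes, and the median log2 ratio was 0.33, against -0.01 over all tested genes. The most abundant were Mir34a, a p53-induced gene, with 6015 CPM in replicate 1 and 3681 in replicate 2, and Mir499 and Mir208a of the myosin hosts. Mir107, in an intron of the pantothenate kinase gene Pank1, had 384 and 697 CPM and was lower in replicate 1 (log2 ratio -0.93). Its relative Mir103-2, of Pank2, had 5.73 and 17.0 CPM and was also lower (-1.64), counted from reads not shared with Mir103-1, as was the hepatocyte gene Mir122 with 19.1 and 57.3 CPM (-1.66).

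Mir210, induced by low oxygen, was higher in replicate 1, with 195 CPM against 56.6 in replicate 2 (log2 ratio 1.71). Mir181c, whose product is reported in mitochondria of rat heart, was also higher in replicate 1, with 368 and 223 CPM (0.65). Mir338 had 226 and 216 CPM and Mir33, of the sterol regulator gene Srebf2, 10.3 and 13.9 CPM, and neither passed (adjusted p = 0.973 and 0.167). Summed over the list, these genes came to 13692 CPM in replicate 1 and 9681 in replicate 2, which Mir378a exceeded 7.71-fold and 13.0-fold. Only reads unique to a locus enter the sum and the count of Mir378a, so these folds say nothing of full microRNA levels.

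Cell type markers also differed between the libraries. All 6 brown adipocyte markers were detected, with a summed level of 1453 CPM in replicate 1 and 2160 in replicate 2, mostly Mir455, which other tissues also express. These markers did not move alike. Mir455 and Mir203 were lower in replicate 1 (log2 ratios -0.64 and -1.46) and Mir182 was higher (1.01). Mir193b did not pass (0.06), and Mir365-1 and Mir365-2 were not tested. All 3 endothelial markers were detected at 176135 and 49984 CPM, both smooth muscle markers at 32911 and 56334, both erythroid markers at 755 and 230, and all 4 leukocyte markers at 5369 and 7640 CPM, in replicates 1 and 2. No marker in these lists was at 0, which alone does not show that a cell type was present. The part of these cell types in the levels of the Mir378 genes was not tested. In bulk tissue fewer cells of a type and less RNA per cell cannot be told apart. Mir126a alone held 174314 CPM of the endothelial sum in replicate 1. The other endothelial markers went the other way, with 1742 CPM of Mir221 in replicate 1 against 3079 in replicate 2 (log2 ratio -0.89) and 78.8 CPM of Mir222 against 124 (-0.73). Once the counts of Mir126a were left out of the totals, Mir378a held 12.8% of the rest in replicate 1 and 13.2% in replicate 2.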

How the data were processed

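MicroRNA sequencing of 2 heart libraries was analysed as 1 group. The authors deposited a table for each library with unnormalised counts of reads at each microRNA gene, for reads regardless of strand, on the strand of the gene and on the opposite strand; the strand of the gene was used. Per the deposited readme the build is mm10 with annotation M21. No aligner is named: it is not given in the sources used here. Per table, the 4 rows of unmapped, several-locus, featureless and ambiguous reads stayed out of totals and tests. In the order of the replicates they came to 19.0% and 17.5%, 42.4% and 43.2%, 6.94% and 7.11%, and 0% and 0% of 13233055 and 8930289 reads. Assigned counts were 4186560 in replicate 1 and 2877511 in replicate 2.

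CPM were taken over assigned counts. Genes kept by edgeR 4.0.16 filterByExpr (minimum count 10) were compared between libraries by an exact two-sided binomial test on TMM-scaled totals, Benjamini-Hochberg adjusted over the 309 genes kept, threshold 0.05, with exact 95% intervals. DESeq2 1.42.0 gave alternative size factors. Shares have exact Clopper-Pearson intervals. Precursors came from GENCODE M21 transcripts and mature sequences from RefSeq, matched by symbol for 3 of the 4 genes; folding used ViennaRNA 2.7.2. Python 3.11.15, scipy 1.17.1 and R 4.3.3 were used. On simulated counts over 309 genes, the binomial step called 72 of 100 genes changed 1.5-fold, 90 of 100 changed 2-fold and 3 of 109 unchanged. The simulated counts held counting error only and were tested on plain totals. They therefore say nothing of calls that arise from spread between libraries.

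The members and lists were chosen with earlier results of these data known. Named genes were the 4 members, the partner Gm25301, the 4 genes next in rank, the 3 with the closest log2 ratio among those of 1000 CPM or more, and list members of 10 CPM or more.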

Additional observations from a re-analysis of the deposited data

How the results depend on the processing

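The direction and the side of the threshold of the log2 ratios of all 4 Mir378 genes, and the number of detected members, were kept under every alternative that gave a value. With strand ignored Mir378a had no reads, so its ratio could not be computed, its level and its share of the family were 0, and its rank was tied at 690. Its rank without replicate 2 was 2 and without replicate 1 was 1. With strand ignored, Mir378d came to 401 CPM, Mir378c to 40.7 and Mir378b to 15.3, because the total then shrank. Per 1000000 of all reads, Mir378a, Mir378d, Mir378c and Mir378b came to 37051, 94.2, 9.74 and 3.61. Per 1000000 of assigned reads and reads at several loci they came to 49536, 126, 13.0 and 4.83.

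The log2 ratio of Mir378a was -0.18 with DESeq2 size factors, -0.26 with plain totals and -0.05 with totals that left out Mir126a, an alternative chosen after seeing the data. DESeq2 size factors moved the median of all tested genes by 0.15 and the totals without Mir126a by 0.27. Relative to the median of the tested genes, Mir378a stood at -0.32 with TMM, a value that DESeq2 size factors and plain totals cannot change because they shift all genes alike. It was -0.31 without Mir126a and -0.18 with no filter beyond 1 count, where the median is taken over 709 genes. Of the genes past the test, 87 were higher and 109 lower in replicate 1 with TMM, 103 and 83 with DESeq2 size factors, and 121 and 72 without Mir126a. No paired analysis was possible because the design holds 1 group. Depth limits Mir378b most, with 51 and 30 counts. Outlier rules need at least 4 samples, so none was applied.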
